A study of Mus musculus with 6 samples.

Results

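The cholesterol genes of splenic B cells were examined in p80HT transgenic mice and in their wild-type (WT) littermates. A list of 31 genes was taken by gene symbol and covers the synthesis of cholesterol, its control by SREBP, its uptake and movement inside the cell, and its efflux under LXR. Of these, 28 are measured here among 19938 genes in all, each at the probeset (the group of probes that reads a gene) with the highest mean over the 6 arrays. The other members, Acat2, Nr1h2 and Soat1, are not analysed here. The p80HT mice carry the coding sequence of a truncated human NF-κB2 found in lymphoma. An H-2Kb promoter with an enhancer of the immunoglobulin μ chain drives it in T cells as well as B cells. The 3 p80HT mice had M-protein (a monoclonal immunoglobulin) in the serum and the 3 WT littermates did not carry the transgene. All mice were on a mixed C57BL/6J and SJL/J background and were 1 year old. Their B cells were drawn from spleen with magnetic beads through B220, and RNA of each mouse was read on 1 Affymetrix Mouse Gene 1.0 ST array. All values are log2 signals, and a difference of 1 on this scale is a doubling.

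Cells make cholesterol from acetyl-CoA through mevalonate, isoprenoids, squalene and a series of sterols. When sterols in the endoplasmic reticulum are scarce, SCAP escorts the SREBP transcription factors to the Golgi, where they are cleaved and released to switch on the enzymes of the route. INSIG proteins hold SCAP back when sterols are plentiful, and the Insig1 gene is itself a target of SREBP. Oxysterols activate the LXR receptors, which switch on the efflux transporters ABCA1 and ABCG1. Lymphocytes draw on sterol synthesis when they are activated and grow, while LXR activity is known to restrain the proliferation of T cells.

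A p80HT mouse, replicate 3, differs from all others on its array. Across genes, this array correlates at 0.914 to 0.925 with the other 5 arrays, and among those 5 every correlation is 0.981 to 0.995. The summed linear signal of 7 B cell markers was 20436 on it, against 36551 and 38559 on the other p80HT arrays and 39184 to 43571 on the WT arrays. For 10 macrophage markers the sum was 28626 on p80HT replicate 3 and 8426 to 8510 on the other p80HT arrays, against 5907 to 6477 in WT. The other p80HT mice also differ from WT in markers of other cells. For 7 T cell markers the sum was 5859, 5008 and 17999 in p80HT, against 2420 to 3244 in WT, with Cd3e and Cd3g risen and all 7 highest on replicate 3. For 4 markers of red cell precursors it was 1781, 2133 and 1243 in p80HT, against 753 to 826 in WT, with Alas2 and Slc4a1 risen. The others, Epor (log2 change 0.18) and Klf1 (0.39), overlapped between the groups, and p80HT replicate 3 was the lowest of all arrays for both. The part of these cells in the changes of the cholesterol genes was not tested. For 6 markers of salivary and lacrimal glands the sum was 37250 on p80HT replicate 3, 805 and 1017 on the other p80HT arrays and 810 to 946 in WT. Markers of dividing cells, 5 in all, summed to 7772 on p80HT replicate 3, 2423 and 2696 on the other p80HT arrays and 2496 to 2842 in WT. All 5 were highest on replicate 3, and none rose. The part of dividing cells in the cholesterol genes was not tested. In bulk RNA, fewer cells of a type and less RNA per cell cannot be told apart. Results are therefore given with and without p80HT replicate 3.

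Of the 28 cholesterol genes, 2 fell in p80HT B cells, none rose and 26 did not pass. The 2 are Insig1, the brake on SREBP processing, and Abca1, the exporter of cholesterol to apolipoproteins. Here rose and fell mean a change of 1.5-fold or more together with a limma p, not adjusted, under 0.01, which is the study's threshold. Over all genes 0.968% (193) fell and 1.22% (243) rose by that rule. With each array centred on its median, 342 fell and 183 rose, and 4 members fell. The study lists both genes as changed on these same arrays, so they are not independent evidence. After Benjamini-Hochberg adjustment over all genes, no member had a limma p under 0.05. Of all genes, 10 did as higher (0.0502%) and 1 as lower (0.00502%). Before adjustment 5 members were lower at a p under 0.05, against 5.96% of all genes, and 1 was higher, against 4.28%. The analysis of variance that the methods name also found 2 members lower by the 1.5-fold rule. Without p80HT replicate 3, 5 members fell, against 1.45% of all genes. These were Insig1, Abca1 and 3 enzymes, Idi1, Msmo1 and Sc5d. Without that array 6 members were lower at an adjusted p under 0.05, the same 5 and Hmgcs1, against 2.11% of all genes. No member rose or was higher at an adjusted p under 0.05 in that fit, against 2.01% and 2.56% of all genes.

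**Figure D1:**
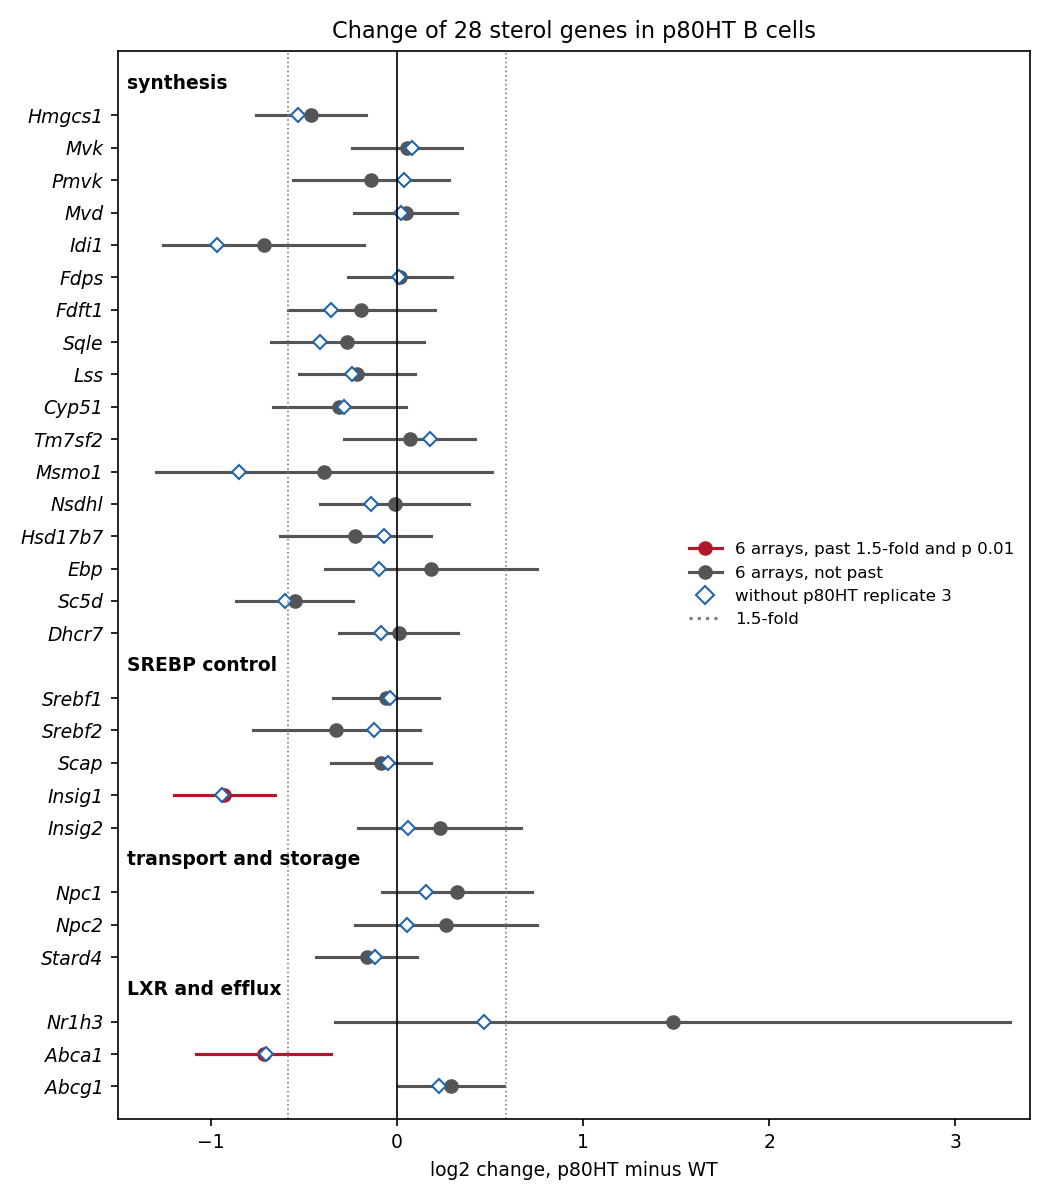
Log2 change (p80HT minus WT, horizontal axis) of the 28 measured genes by role, with the 95% confidence interval from limma on 6 arrays (circles and lines) and the change without p80HT replicate 3 (diamonds). Insig1 at -0.93 and Abca1 at -0.72 pass the threshold (red), and the widest interval belongs to Nr1h3, whose change was 1.48 with and 0.46 without that array.

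Insig1 had the largest log2 change among the members that passed. Its signal was 10.79, 10.66 and 10.76 in p80HT B cells, against 11.61, 11.69 and 11.69 in WT. The groups lie far apart, and the spread within each is small, with p80HT replicate 3 between the other p80HT mice. The log2 change was -0.93 (95% confidence interval -1.20 to -0.66, limma adjusted p = 0.0681), so that p80HT B cells held 0.525 times the WT signal. It was -0.94 without p80HT replicate 3 (limma adjusted p = 0.00121). Leaving out any 1 of the 6 arrays kept the call, with changes from -0.96 to -0.89.

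The other genes that control SREBP did not pass. Insig2, which encodes the second INSIG protein, was at 9.17, 9.05 and 9.61 in p80HT, against 8.98, 8.91 and 9.25 in WT, and its groups overlap (log2 change 0.23, 95% confidence interval -0.21 to 0.66). The escort gene Scap (-0.08) and Srebf1 (-0.06), which encodes the SREBP that favours fatty acid genes, overlapped as well. Srebf2 encodes the SREBP that favours cholesterol genes. It was at 11.51, 11.43 and 10.86 in p80HT, against 11.53, 11.68 and 11.58 in WT. Every p80HT value lies below every WT value, but most of the difference is on p80HT replicate 3, and the log2 change of -0.33 was -0.12 without it. These are levels of RNA, and the cleavage of SREBP proteins was not measured.

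The DNA before the start sites of 5 genes with lower signal, chosen after their values were seen, is shown because SREBP acts at such sites together with NF-Y, a factor that binds the CCAAT box. Each is the 250 bases before the annotated start, 5′ to 3′ on the gene's strand, from RefSeq on GRCm38.p6. Capitals mark the letters CCAAT on either strand (ATTGG on the other) and TCACNCCAC, a form of the sterol regulatory element, on either strand. The regions are chr5:28071162-28071411 (+ strand) for Insig1, chr4:53159896-53160145 (- strand) for Abca1, chr13:8885356-8885605 (+ strand) for Idi1, chr9:42264301-42264550 (- strand) for Sc5d and chr13:119690101-119690350 (+ strand) for Hmgcs1.
Insig1: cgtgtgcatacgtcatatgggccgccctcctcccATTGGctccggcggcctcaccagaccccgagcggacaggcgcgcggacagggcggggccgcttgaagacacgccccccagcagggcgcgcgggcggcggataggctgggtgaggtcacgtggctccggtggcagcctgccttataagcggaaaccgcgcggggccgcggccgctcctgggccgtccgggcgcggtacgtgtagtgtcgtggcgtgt
Abca1: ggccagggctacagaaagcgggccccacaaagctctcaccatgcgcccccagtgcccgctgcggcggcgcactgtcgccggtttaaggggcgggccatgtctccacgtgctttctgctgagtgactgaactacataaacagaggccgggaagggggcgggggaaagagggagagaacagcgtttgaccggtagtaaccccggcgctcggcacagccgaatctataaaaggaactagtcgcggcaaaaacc
Idi1: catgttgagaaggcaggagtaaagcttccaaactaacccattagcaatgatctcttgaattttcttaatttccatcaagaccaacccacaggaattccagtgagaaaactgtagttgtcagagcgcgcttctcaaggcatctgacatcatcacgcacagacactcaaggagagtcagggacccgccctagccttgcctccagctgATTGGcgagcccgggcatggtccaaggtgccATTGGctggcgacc
Sc5d: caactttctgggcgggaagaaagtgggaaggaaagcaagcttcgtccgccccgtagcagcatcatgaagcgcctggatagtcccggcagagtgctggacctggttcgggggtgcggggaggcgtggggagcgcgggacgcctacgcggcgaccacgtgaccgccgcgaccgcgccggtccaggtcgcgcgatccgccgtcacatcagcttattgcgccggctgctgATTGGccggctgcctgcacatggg
Hmgcs1: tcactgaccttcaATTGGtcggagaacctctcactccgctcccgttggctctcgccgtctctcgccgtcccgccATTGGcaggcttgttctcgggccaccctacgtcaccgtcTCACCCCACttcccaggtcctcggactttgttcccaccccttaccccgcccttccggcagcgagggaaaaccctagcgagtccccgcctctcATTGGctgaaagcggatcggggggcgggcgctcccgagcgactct
Of the 5, only the Hmgcs1 window holds TCACNCCAC, starting 137 bases before the start site, and so do 1.05% of 32851 annotated promoters of this length. CCAAT stands in the windows of Insig1, Idi1, Sc5d and Hmgcs1 and not in that of Abca1. For the 22 measured members with a promoter in the table, 20 of 31 promoters (64.5%) hold CCAAT, against 33.8% of all promoters, and they include genes that did not pass, such as Mvk, Mvd and Lss. The motifs do not overlap each other in these windows. The LXR response element was searched only in its strict form, a spaced direct repeat of AGGTCA with no letter changed. That form was in none of the members' windows and in 0.0152% of all. Repeats with other letters were not searched. The search thus cannot tell whether a member's window, that of Abca1 included, holds a looser form of the element. A match in letters is a description and not a bound site, and a window without a match says nothing about the factor.

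Among 17 measured enzymes of cholesterol synthesis, 3 had every p80HT value below every WT value (11.9% of all genes did), none had every value above (8.86%), and 14 overlapped. They act at different steps. Idi1 encodes the isomerase that makes the reactive isoprenoid unit, Sc5d a desaturase close to the end of the route, and Hmgcs1 the synthase that makes HMG-CoA at its beginning.

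Idi1 was at 8.44, 8.32 and 9.13 in p80HT, against 9.16, 9.47 and 9.40 in WT. The first 2 p80HT mice are well below WT, while replicate 3 lies just under the lowest WT mouse. The log2 change was -0.72 (95% confidence interval -1.26 to -0.18, limma adjusted p = 0.379), which did not pass, and without p80HT replicate 3 it was -0.97 and passed (limma adjusted p = 0.00202). A second, dimmer probeset of Idi1 gave -0.80 and passed, by an unadjusted p of 0.00978 in limma. Sc5d was at 9.29, 9.51 and 9.55 in p80HT, against 9.88, 10.05 and 10.07 in WT. All 3 p80HT mice were lower here, replicate 3 included. Its log2 change of -0.55 (95% confidence interval -0.87 to -0.24, limma adjusted p = 0.264) was short of 1.5-fold, and it was past it without p80HT replicate 3 (-0.60) or without WT replicate 1 (-0.61). Hmgcs1 was at 8.55, 8.58 and 8.78 in p80HT, against 9.07, 9.17 and 9.06 in WT. The groups do not overlap, and the log2 change of -0.46 (95% confidence interval -0.76 to -0.17, limma adjusted p = 0.313) was below 1.5-fold with or without p80HT replicate 3 (-0.53).

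Msmo1, the methyl oxidase that acts on early sterols, split the p80HT mice. It was at 8.04, 8.49 and 9.64 in p80HT, against 8.91, 9.31 and 9.13 in WT. p80HT replicates 1 and 2 lie below all WT mice and replicate 3 above them. The log2 change was -0.39 (95% confidence interval -1.29 to 0.51) and -0.85 without replicate 3, which passed (limma adjusted p = 0.0170). The same array was also the highest p80HT array for Sqle (the epoxidase of squalene), Fdft1 (squalene synthase) and Ebp (a sterol isomerase). For Fdft1 its value of 9.76 is above all WT values (9.57 to 9.73), while 9.24 and 9.32 on the other p80HT arrays are below them. For Sqle the p80HT values were 8.06, 8.21 and 8.58, against 8.58, 8.69 and 8.37 in WT, with the first 2 below all WT mice. The log2 change was -0.19 for Fdft1 and -0.27 for Sqle, and -0.35 and -0.42 without p80HT replicate 3, and neither passed in either fit.

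Several steps of the route had overlapping groups and did not pass. Between HMG-CoA and farnesyl diphosphate, the kinase Mvk (log2 change 0.053), the decarboxylase Mvd (0.045) and the synthase Fdps (0.015) had overlapping groups, and the sign of each turns to negative when arrays are centred on their medians. So did the kinase Pmvk (-0.14). The confidence intervals were -0.24 to 0.35 for Mvk, -0.23 to 0.32 for Mvd and -0.27 to 0.30 for Fdps, which leave out a 1.5-fold change of 0.58. Among the sterol enzymes, Cyp51, the demethylase of lanosterol, was at 8.52, 8.21 and 8.29 in p80HT, against 8.47, 8.83 and 8.66 in WT, and only p80HT replicate 1 lies within the WT range (log2 change -0.31). Lss, the cyclase that makes lanosterol, was at 8.05 to 8.16 in p80HT, against 8.13 to 8.45 in WT (-0.21). Ebp was at 8.73, 8.79 and 9.59 in p80HT, against 8.72, 8.87 and 8.98 in WT, with replicate 3 alone above (0.18, and -0.10 without it). Hsd17b7, a ketosteroid reductase, was lowest on replicate 3, at 8.67, 8.78 and 8.26 in p80HT, against 8.95, 8.77 and 8.67 in WT (-0.23, and -0.07 without replicate 3). Nsdhl (-0.014) and the reductases Tm7sf2 (0.067) and Dhcr7 (0.0077, the last step to cholesterol) were close to 0, and the sign of Tm7sf2 and Dhcr7 turns with median centring, that of Tm7sf2 and Nsdhl with quantile normalization. All of these overlapped between the groups. Of the 17 enzymes, 11 had a negative log2 change and the median was -0.19, against a median of -0.02 and 54.9% negative over all genes. p80HT replicates 1 and 2 were below every WT array for 8 of the 17 (20.5% of all genes) and above for 1 (19.7% of all genes).

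**Figure D2:**
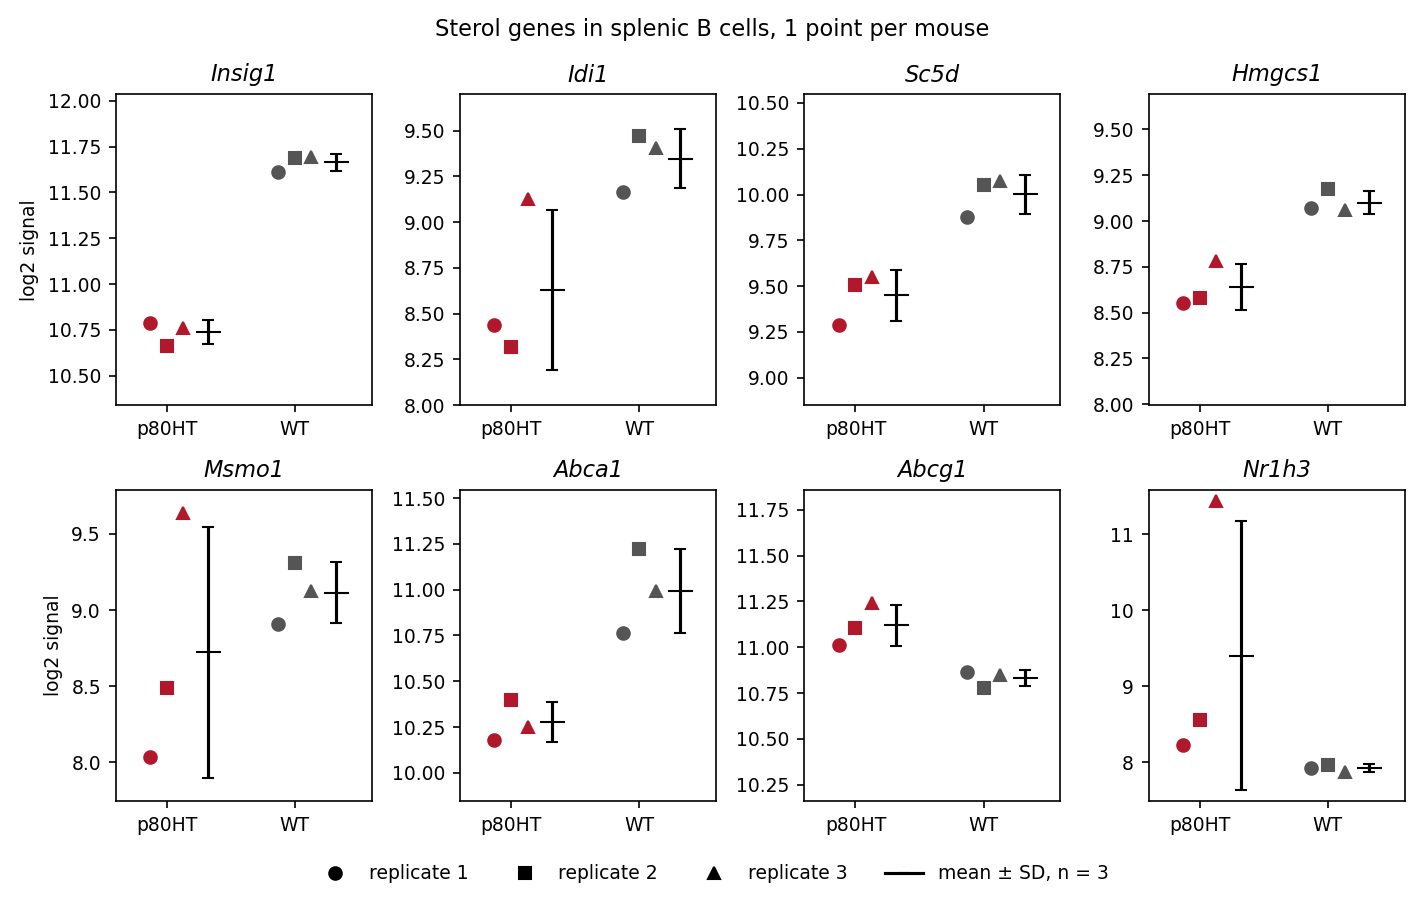
Log2 signal (vertical axis) of 8 cholesterol genes, where points are single mice and bars the mean and SD of 3 p80HT (red) and 3 WT mice (grey). Insig1, Sc5d, Hmgcs1 and Abca1 are lower in all 3 p80HT mice, while p80HT replicate 3 (triangle) lies apart from the other p80HT mice for Idi1, Msmo1 and Nr1h3.

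None of the 3 measured genes of sterol movement passed. Npc1 and Npc2 encode the pair of proteins that take cholesterol from lipoproteins out of the lysosome. Npc1 was at 10.46, 10.31 and 10.90 in p80HT, against 10.20, 10.24 and 10.25 in WT. All p80HT mice were higher, replicate 3 by the widest margin, and the log2 change was 0.32 with and 0.15 without it. Npc2 was at 9.47, 9.64 and 10.18 in p80HT, against 9.35, 9.46 and 9.69 in WT, with overlap (log2 change 0.26, and 0.055 without that array). Stard4 encodes a soluble carrier of sterols and, like Insig1, is known as a target of SREBP. It was at 7.76 to 7.92 in p80HT, against 7.99 to 8.04 in WT, and the groups do not overlap although the difference is small (log2 change -0.16, 95% confidence interval -0.44 to 0.11).

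The efflux transporters differed in direction. Abca1 was at 10.18, 10.40 and 10.25 in p80HT, against 10.76, 11.22 and 10.99 in WT, and every p80HT mouse was lower. The log2 change was -0.72 (95% confidence interval -1.08 to -0.35, limma adjusted p = 0.211), or 0.608 times the WT signal. It was -0.71 without p80HT replicate 3 (limma adjusted p = 0.0247). Leaving out p80HT replicate 1 (-0.67), WT replicate 2 (-0.60) or WT replicate 3 (-0.72) ended the call. Abcg1, which passes cholesterol to high-density lipoprotein, was at 11.01, 11.10 and 11.24 in p80HT, against 10.86, 10.78 and 10.85 in WT. Every p80HT mouse was higher, but the log2 change was 0.29 (95% confidence interval 0.0024 to 0.57, limma adjusted p = 0.483), which did not pass. The change was 0.23 without p80HT replicate 3 (limma adjusted p = 0.236), 0.20 with median centring and 0.37 with quantile normalization.

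Nr1h3, which encodes LXRα and is prominent in macrophages, was at 8.22, 8.55 and 11.43 in p80HT, against 7.93, 7.96 and 7.87 in WT. The p80HT mice were all higher, with replicate 3 far above the rest. The log2 change of 1.48 had a 95% confidence interval of -0.33 to 3.29 and did not pass, and without that array it was 0.46 (limma adjusted p = 0.0640). Of the 10 macrophage markers, 7 were highest on p80HT replicate 3, and their median log2 change was 0.95 with and 0.45 without that array. Of these markers 2 rose, Adgre1 and Vsig4, and neither was highest on that array. Adgre1 was at 10.10, 10.31 and 9.61 in p80HT, and Vsig4 at 6.36, 6.25 and 6.35. Cd163 overlapped between the groups (log2 change -0.02). The part of macrophages in the Nr1h3 signal was not tested.

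Set side by side as the mean deviation from the WT level of each gene, the 17 synthesis genes stood at -0.26, -0.25 and -0.04 in the p80HT mice, against -0.04, 0.06 and -0.02 in the WT mice. The first 2 p80HT mice are below all WT mice and replicate 3 is just under the lowest of them. The 3 LXR and efflux genes stood at -0.11, 0.10 and 1.06 in p80HT, against -0.06, 0.07 and -0.01 in WT, and p80HT replicate 3 is far above the rest. The group means differed by -0.18 for synthesis and by 0.35 for LXR and efflux, and the difference between these changes was -0.53 ± 0.50 (SD over 3 p80HT mice). Without p80HT replicate 3 the 3 values were -0.25, -0.0045 and -0.25. For Abca1 and Abcg1 alone, without Nr1h3, the values were -0.31, -0.16 and -0.17 in p80HT, against -0.10, 0.09 and 0.01 in WT, and synthesis differed from them by 0.03 ± 0.11 (SD over 3 p80HT mice). Without p80HT replicate 3 synthesis differed from Abca1 and Abcg1 by -0.016. The pair averages 2 transporters of opposite sign, with log2 changes of -0.72 for Abca1 and 0.29 for Abcg1, against 1.48 for Nr1h3. The contrast of synthesis with efflux thus depends on which efflux genes are taken, and its size also depends on p80HT replicate 3. These means are descriptions over a chosen list and carry no test.

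**Figure D3:**
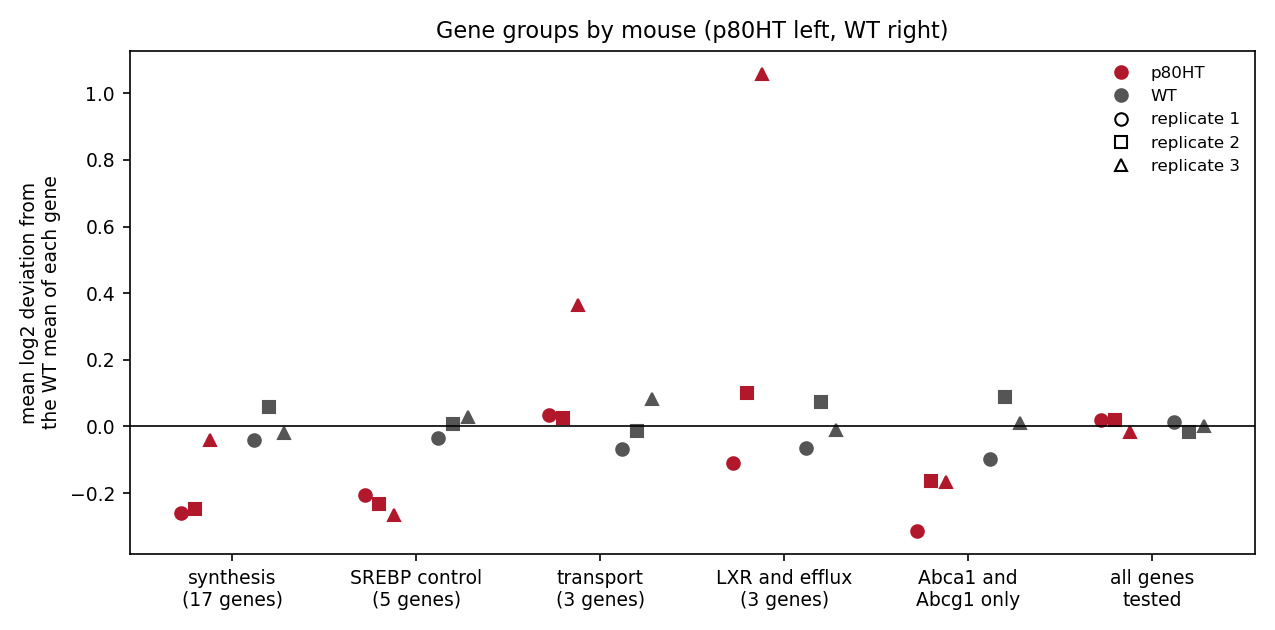
Mean log2 deviation from the WT mean of each gene (vertical axis) for groups of cholesterol genes and for all genes, 1 point per mouse (p80HT in red on the left, WT in grey on the right). The synthesis genes of p80HT replicates 1 and 2 lie at -0.26 and -0.25, and LXR and efflux genes stand out at 1.06 on p80HT replicate 3.

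The spread among mice was wider in p80HT than in WT, for these genes as for all. The median SD of the 28 genes was 0.18 in p80HT and 0.086 in WT, against 0.25 and 0.13 over all genes. The p80HT SDs include replicate 3, whose array correlates at only 0.914 to 0.925 with the others, and they were not taken without it. p80HT replicate 3 was the highest p80HT array for 15 of the 28 members (53.6%, against 35.6% of all genes), Insig1 and Abca1 not among them. Groups did not overlap for 7 members with p80HT below (25%, against 11.9% of all genes) and for 3 with p80HT above (10.7%, against 8.86%). The 7 were Insig1, Abca1, Idi1, Sc5d, Hmgcs1, Srebf2 and Stard4, and the 3 were Nr1h3, Abcg1 and Npc1.

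Further lists cover the rest of the pathway, with 45 of their 54 genes measured. Of these, 4 rose (8.89%, against 1.22% of all genes), 1 fell (2.22%, against 0.968%) and 40 did not pass. None passed an adjusted p under 0.05 in limma. At an unadjusted p under 0.05, 7 were higher (15.6%, against 4.28% of all genes) and 4 lower (8.89%, against 5.96%). Without p80HT replicate 3 the counts were also 4 and 1, against 2.01% and 1.45% of all genes, with Abcg4 (0.69 there, named after its value was seen) in place of Acss2. The median log2 change was -0.05 for other genes of sterol synthesis and SREBP control, 0.29 for fatty acid genes, 0.32 for receptors and transport and 0.35 for LXR targets and partners, against -0.02 over all genes. Without that array the 4 medians were -0.12, 0.04, 0.09 and 0.08, against 0.04 over all genes. Among 9 other genes of sterol synthesis and SREBP control, Acss2, which makes acetyl-CoA from acetate, rose. It was at 8.20, 8.36 and 8.64 in p80HT, against 7.75, 7.73 and 7.73 in WT, with no overlap. Its log2 change was 0.66, and leaving out WT replicate 2 (0.66), WT replicate 3 (0.66) or p80HT replicate 3 (0.55) ended the call, as did median centring (0.57) and array weights (0.51). None of the 10 fatty acid genes passed in the fit of all 6 arrays. The 2 nearest were a pair of stearoyl-CoA desaturases with opposite signs. Scd1 was at 12.91, 12.73 and 11.95 in p80HT, against 13.29, 13.43 and 13.34 in WT (log2 change -0.82, and -0.53 without p80HT replicate 3). Scd1 passed as lower without p80HT replicate 1 (-1.01), with median centring (-0.91), with an intensity trend and with the replicate number as a block (-0.82 in both). Scd2 was at 10.91, 11.14 and 11.87 in p80HT, against 10.67, 10.60 and 10.82 in WT (log2 change 0.61, and 0.33 without that array). For each, no p80HT mouse overlapped the WT mice.

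Among 11 genes of lipoprotein receptors and sterol transport, Gramd1a fell and Gramd1b rose. Both encode carriers that move cholesterol from the plasma membrane to the endoplasmic reticulum, where INSIG and SCAP reside. Gramd1a was at 10.69, 10.61 and 10.17 in p80HT, against 11.27, 11.44 and 11.18 in WT. It changed by -0.81 on the log2 scale, and by -0.65, still past the threshold, without p80HT replicate 3. It did not pass without WT replicate 2 (-0.74), with array weights (-0.55) or in the methods' analysis of variance. Gramd1b was at 10.01, 9.78 and 9.91 in p80HT, against 9.13, 9.35 and 9.32 in WT. Its log2 change was 0.63, and also 0.63 without p80HT replicate 3. It did not pass without WT replicate 1 (0.56) or p80HT replicate 1 (0.58), or with median centring (0.54). The groups of neither gene overlap.

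Of 15 LXR targets, partners and oxysterol genes, 2 rose and none fell. Apoe, which encodes an apolipoprotein that accepts effluxed cholesterol, was at 12.14, 12.12 and 13.36 in p80HT, against 11.03, 10.88 and 11.44 in WT. It changed by 1.42 on the log2 scale, and by 1.01 without p80HT replicate 3 (limma adjusted p = 0.00631). Without WT replicate 1 (1.38) or WT replicate 2 (1.30), and in the methods' analysis of variance, it did not pass. Smpdl3a, a phosphodiesterase gene known as an LXR target in human macrophages, was at 10.75, 10.89 and 11.80 in p80HT, against 10.15, 10.04 and 10.28 in WT. Its log2 change was 0.99, and 0.67, past the threshold, without p80HT replicate 3. It did not pass without WT replicate 1 (0.99), WT replicate 2 (0.93) or WT replicate 3 (1.05), with median centring (0.90), with array weights (0.55) or in the methods' analysis of variance. Both genes are strongly expressed in macrophages, whose summed markers were 8426 to 28626 in p80HT, against 5907 to 6477 in WT. The part of such cells in these values was not tested.

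**Figure D4:**
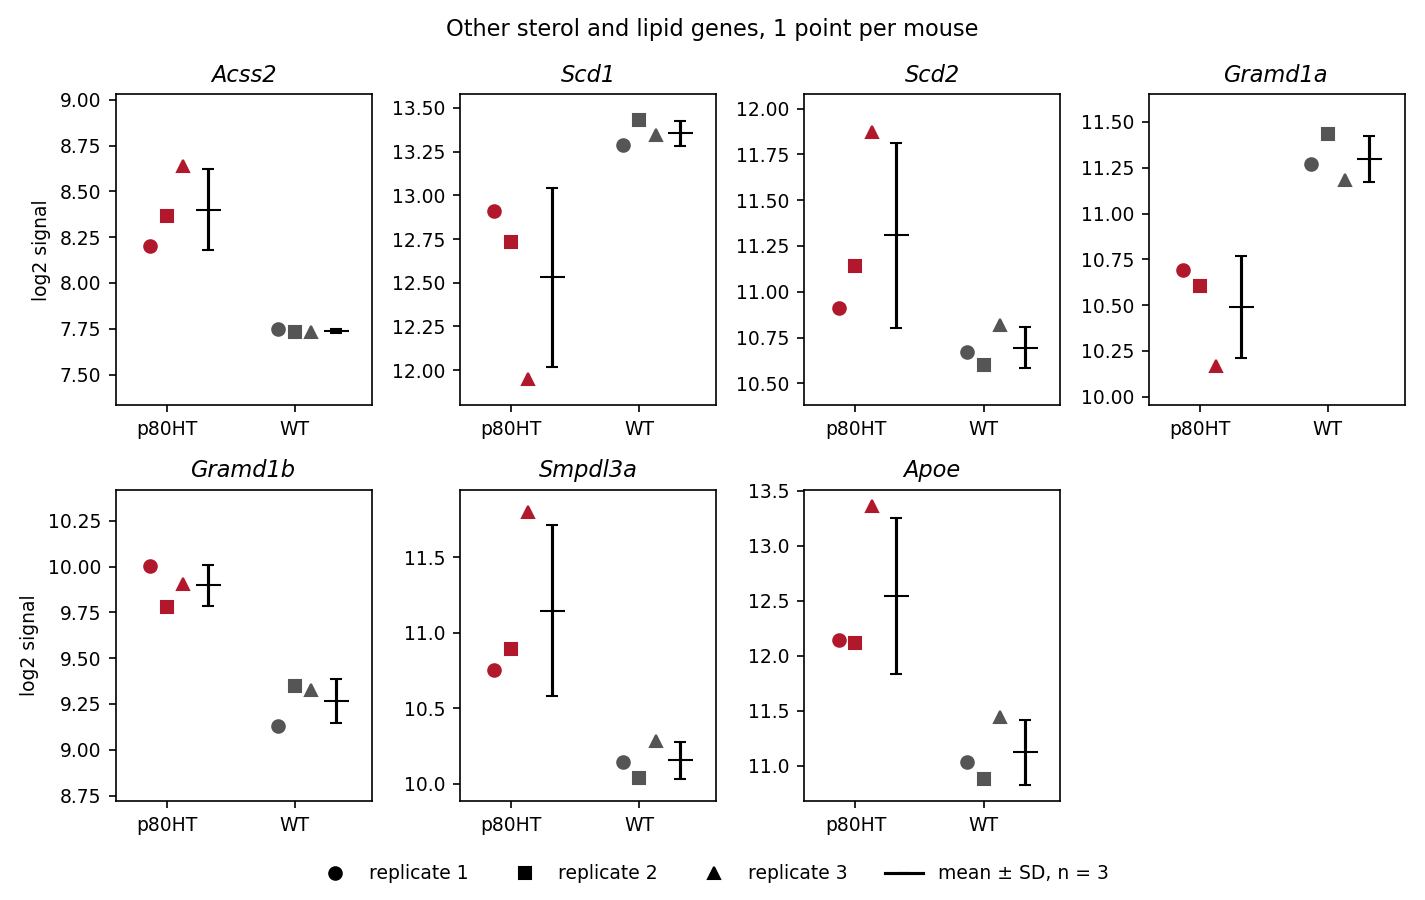
Log2 signal (vertical axis) of 7 other sterol and lipid genes, where points are single mice and bars the mean and SD of 3 p80HT (red) and 3 WT mice (grey). Scd1 and Gramd1a are lower and the other 5 genes higher in all p80HT mice, with p80HT replicate 3 (triangle) the farthest from WT for all but Gramd1b.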

How the data were processed

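RNA of splenic B cells was read on 1 array per mouse. The authors deposited log2 probeset signals made by RMA, which corrects background, quantile-normalizes and summarises probes over the arrays, with Partek software. Versions are not given in the sources used here. Values run from 3.07 to 14.8, with array medians of 7.68 to 7.81, and the number of arrays limits the precision. Of 28853 probesets, 21789 carry 1 gene symbol in the platform annotation, 1621 several and 5443 none. The brightest single-symbol probeset of each gene was kept. All 19938 genes were fitted by genotype, 2-sided, in R 4.3.3 (limma 3.58.1, lmFit then eBayes). The methods give 3 mice per genotype, and the labels number the samples of each group. The p-values thus set the difference between groups against the spread between mice. With 3 arrays a group, exact permutation reaches no p under 0.1, so none was used. Members, lists and tests were chosen with earlier results of these data known. All members are named and, from each further list, up to 4 genes past the threshold, or the 2 with the smallest p where none passed. Tables and figures were made with Python 3.11.15, pandas 2.3.3 and matplotlib 3.10.9. Alternatives were leaving out each array, a replicate block, ordinary analysis of variance, an intensity trend, array weights, median centring, quantile normalization, filters at the 25th and 50th percentile, the mean over probesets and other thresholds. Dimmer probesets of Idi1 and Fdft1 were added after seeing the data.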

Additional observations from a re-analysis of the deposited data

How the results depend on the processing

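Insig1 kept its call under each alternative fit, with log2 changes from -1.02 to -0.86, and lost it at an adjusted p under 0.05. No member rose under any alternative run. The number of members that fell was 2 with all arrays, 1 to 5 when 1 array was left out (1 without p80HT replicate 1, WT replicate 2 or WT replicate 3, where Abca1 was lost, and 5 without p80HT replicate 3), 5 with array weights, 4 with median centring and 0 at an adjusted p under 0.05. Over all genes 243 rose and 193 fell. These counts were 137 to 401 and 69 to 290 with 1 array left out, 119 and 77 by the methods' analysis of variance, 478 and 422 with array weights, 183 and 342 with median centring, and 10 and 1 at an adjusted p under 0.05. For the further lists, with 4 risen and 1 fallen, they were 1 to 5 and 0 to 2 with 1 array left out, 2 and 0 by the analysis of variance, 1 and 2 with median centring, 4 and 0 with array weights and 0 and 0 at an adjusted p under 0.05, and 2 fell with an intensity trend. Without 1 array the mean change ranged from -0.25 to -0.15 for synthesis, from -0.0045 to 0.58 for LXR and efflux, and from -0.73 to -0.25 for their difference, and array weights gave -0.05 for LXR and efflux. The labels do not say whether same-numbered mice are paired. Same-numbered deviations from the group means correlate at 0.074, -0.24 and 0.069, which cannot decide it with 3 mice a group. With the replicate number as a block 363 genes rose and 204 fell, 2 members fell, and 5 genes of the further lists rose and 2 fell.

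Idi1 passed with median centring (-0.81), quantile normalization (-0.73) and array weights (-0.97), Sc5d with median centring (-0.64) and array weights (-0.73), and Msmo1 with array weights (-0.99). Of the members, 10 changed sign under some alternative, none of them past the threshold. With median centring, which moves the median of all genes from -0.02 to -0.12, Mvk was at -0.039, Mvd at -0.047, Fdps at -0.078, Tm7sf2 at -0.026 and Dhcr7 at -0.084. With quantile normalization Mvd was at -0.0055, Fdps at -0.053, Tm7sf2 at -0.0046 and Nsdhl at 0.0040. With array weights Pmvk was at 0.025, Fdps at -0.092, Nsdhl at 0.033, Ebp at -0.20, Dhcr7 at -0.060, Insig2 at -0.044 and Npc2 at -0.13. With 1 array left out, Mvk ranged from -0.012 to 0.11, Pmvk from -0.26 to 0.039, Fdps from -0.024 to 0.059, Nsdhl from -0.14 to 0.15, Ebp from -0.098 to 0.34 and Dhcr7 from -0.087 to 0.056. Pmvk was left out by the filter at the 50th percentile. The cause of these moves was not tested.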
